A study of Drosophila melanogaster with 8 samples.

Results

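The transcripts of the cytoplasmic ribosomal proteins were followed along the midgut of Drosophila melanogaster larvae in the third instar. The members are all entries of the deposited expression table whose gene name begins with RpL or RpS, the stalk proteins RpLP included and the mitochondrial mRp genes excluded. They number 92 of 14207 named entries, with 50 of the large subunit, 38 of the small subunit and 4 stalk names. RNA was sequenced from 8 subsections. The anterior midgut was cut into M1, M2 and M3-4-5, the middle midgut into M6 and M7-8, and the posterior midgut into M9, M10-11 and M12-13. All subsections came from untreated larvae at the feeding stage, labelled w1118. By the study's methods they were the progeny of flies with GAL4 under the Cyp4d2 promoter and w1118 flies with UAS-GFP.nls, so that GFP in some subsections guided the dissection, and many larvae were pooled. Each subsection is 1 library with no replicate, so no difference between subsections was tested, and no value has an error over larvae.

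Ribosomes translate messenger RNA, and each is built from a small subunit, which reads the message, and a large subunit, which joins the amino acids. Each subunit holds ribosomal RNA and many ribosomal proteins, mostly 1 copy of each, and the acidic stalk proteins P0, P1 and P2 of the large subunit bring in the elongation factors. Cells make these proteins in matched amounts, and loss of 1 copy of many of the genes slows growth and shortens the bristles of flies, the Minute phenotype. In larvae the midgut epithelium grows with the animal by endoreplication and makes large amounts of digestive enzymes.

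Levels are FPKM, that is, fragments per kilobase of transcript, scaled between libraries by the authors with upper-quartile normalization. Differences between subsections are on the log2(FPKM + 1) scale. A mean above 3 FPKM over the 8 subsections was passed by 84 members and by 6084 entries in all, and the statements below are about those 84 unless others are named. The other 8 members stayed under 3 FPKM in every subsection, and those at or near 0 are described with the paralogs. The sum of all deposited FPKM was lowest in M12-13, at 542365, and highest in M2, at 1806160, and the number of reads behind a value is unknown. The M6 library stands apart, since its RNA was more prone to degradation and gave fewer reads by the study's methods. The midgut epithelium genes mex1, GATAe and srp summed to between 2546 and 2838 FPKM in the anterior and 356 to 699 behind it. Nearly all of this sum was mex1, and GATAe and srp went the other way between the ends. GATAe had 18.6 to 22.2 FPKM in the anterior subsections and 25.7 to 40.5 in the posterior ones. For srp the ranges were 0.29 to 0.41 and 0.83 to 1.33 FPKM. The copper cell genes lab and Vha100-4 summed to 665 FPKM in M6, against at most 46.7 FPKM elsewhere. Markers of muscle, which surrounds the gut, summed to 514 FPKM in M6, against 697 to 1691 FPKM elsewhere. Of these 6 genes 4 were lowest in M6, while Mlc2 and wupA were lowest in M9. Markers of fat body were higher in the anterior libraries. The 5 genes summed to 23.2 FPKM in M1, 12.5 in M2 and 25.5 in M3-4-5, against 0.26 to 2.6 FPKM elsewhere, and of these Fbp1 was near 0 in all 8. Midgut progenitor markers (esg, Dl and Sox100B) summed to 11.3 FPKM in M6 and 13.6 in M7-8, against 2.08 to 7.63 FPKM elsewhere. Most of this was esg, at 9.01 FPKM in M6, and Dl was near 0 in all 8. Sox100B had 2.12 FPKM in M6, above the 0.62 to 1.68 of the anterior. It was higher in M7-8, at 3.68 FPKM, and in the posterior, at 2.68 to 3.47 FPKM. The part of these cells in the results was not tested. Markers of salivary gland, hemocytes and germline summed to under 1 FPKM in each subsection.

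As deposited, ribosomal protein transcripts were most abundant in the anterior midgut, intermediate in M6 and least abundant behind it. The median over the 84 members was 1367 FPKM in M1, 1800.3 in M2 and 1404 in M3-4-5, then 1034 in M6 and 533 in M7-8, then 505 in M9, 499.8 in M10-11 and 604 in M12-13. This order depends on how the libraries are scaled. When the summed FPKM was made equal in all subsections, the median was 1498 in M6 and 1158 in M12-13, both above the 875 of M1, the 1036 of M2 and the 1075 of M3-4-5. After division by the median ratio of each library it was 1435 in M6, above the 1238 of M3-4-5 and below the 1545 of M2. In bulk samples such as these, fewer cells of a type and less RNA per cell cannot be told apart.

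**Figure D1:**
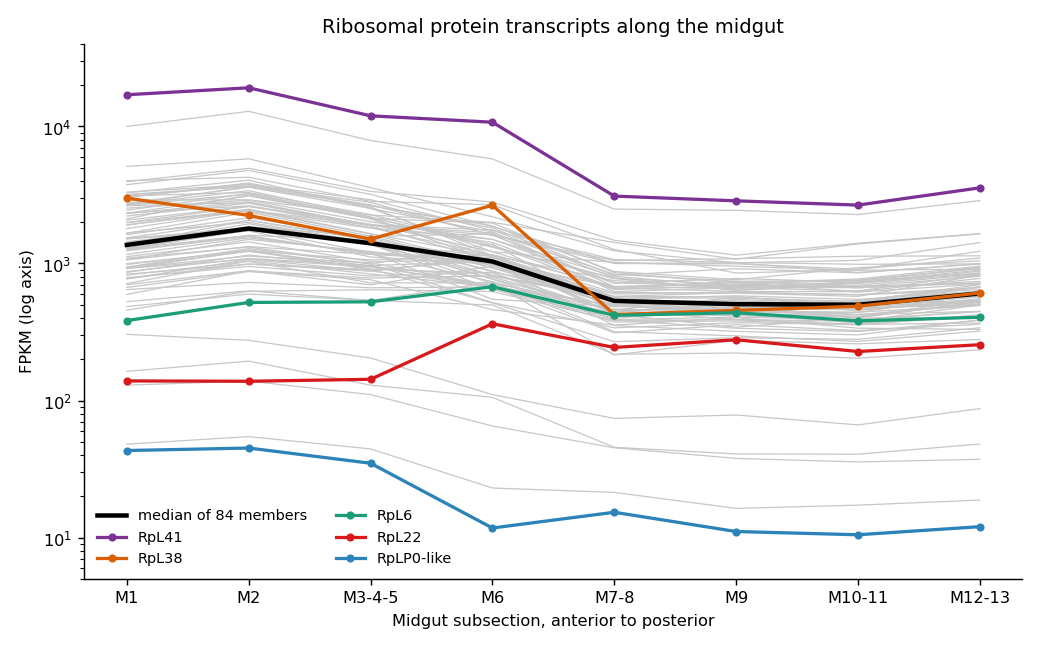
FPKM (log axis) of the 84 members with a mean above 3 FPKM in the 8 subsections, anterior to posterior. Grey lines are single members and the black line is their median, which is 1800.3 FPKM in M2 and 499.8 FPKM in M10-11. RpL41 is the highest member, RpL22 and RpL6 have their peak in M6, RpL38 has peaks in M1 and M6, and RpLP0-like is the lowest.

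M2 held the highest value of 75 of the 84 members, where 22.2% of all 6084 genes had theirs there. Compared with its neighbors, M2 was higher than M1 for 81 members (43.9% of all genes), with a median difference of 0.33. M2 was higher than M3-4-5 for 81 members (53.9% of all genes), with a median difference of 0.43. Both differences correspond to less than 1.5 times. RpL34a and RpL38 were highest in M1, RpL3 in M3-4-5, and 6 members in M6, where 7.36% of all genes had their highest value. No member was highest in M7-8 or in the posterior midgut. The count for M2 depends on how the libraries are scaled. When the summed FPKM was made equal in all subsections, 13 members were highest in M2 and 64 in M6, and after division by the median ratio of each library 50 were highest in M2 and 33 in M6.

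The lowest value was in M10-11 for 44 members (5.34% of all genes), in M7-8 for 19 (5.46%) and in M9 for 19 (7.81%). RpL4 was lowest in M12-13 and RpL22 in M2. No member was lowest in M6, where 43.2% of all genes were lowest, and this count was 0 under each scaling. M12-13 was higher than M10-11 for 83 members (47.7% of all genes), with a median difference of 0.24. As deposited, the hindmost subsection thus lay slightly above M10-11. The median over the members was 604 FPKM in M12-13 and 505 in M9, but some members, among them RpL4 and RpL8, were higher in M9. The medians were 1158 in M12-13, 768 in M10-11 and 595 in M9 when the summed FPKM was made equal.

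Between the ends of the midgut, the mean of the 3 anterior subsections was above that of the 3 posterior ones for 83 of 84 members, with a median anterior minus posterior difference of 1.63. This is 3.1 times, and the difference over the members ranged between −0.85 and 2.39. A difference above 1, which is 2 times, was reached by 71 members, where 24.0% of all genes reached it and the median over all genes was 0.21. In 82 members every anterior value exceeded every posterior value, against 42.1% of all genes. RpL22 and RpL6 were the exceptions. Large and small subunits were alike in this, with medians of 1.59 over 47 members and 1.62 over 33 members. When the summed FPKM was made equal, the median was 0.43 over the members and −0.93 over all genes, and RpL41 alone stayed above 1, while 21 members were below 0. Differences printed here are as deposited, and that rescaling moves those of all genes by a median of −1.14, the division by the median ratio by −0.20.

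RpL32, known as rp49 and often used as a reference gene for quantitative PCR in flies, followed the other members. RpL32 (3R, 25870951 to 25871883) had 2222 FPKM in M1, 2757 in M2 and 1878 in M3-4-5, then 1048 in M6 and 559.7 in M7-8, then 559 in M9, 529.6 in M10-11 and 703 in M12-13. The highest value was 5.21 times the lowest, against a median of 3.93 times over the 84 members.

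Ribosomal protein transcripts are short, and short genes in general were higher in the anterior libraries. The median annotated transcript length was 708.5 nt over the members and 1731 nt over the other genes. Over 5969 other genes, Spearman's rho of the anterior minus posterior difference with length was −0.70, and over the 84 members it was −0.41. These are descriptions across genes that share the same 8 libraries. In other genes of 600 to 700 nt the median difference was 1.35 over 193 genes, and in the 23 members of that length it was 1.73. In other genes of 900 to 1200 nt it was 0.91 over 772 genes, and in the 17 members of that length 1.29.

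**Figure D2:**
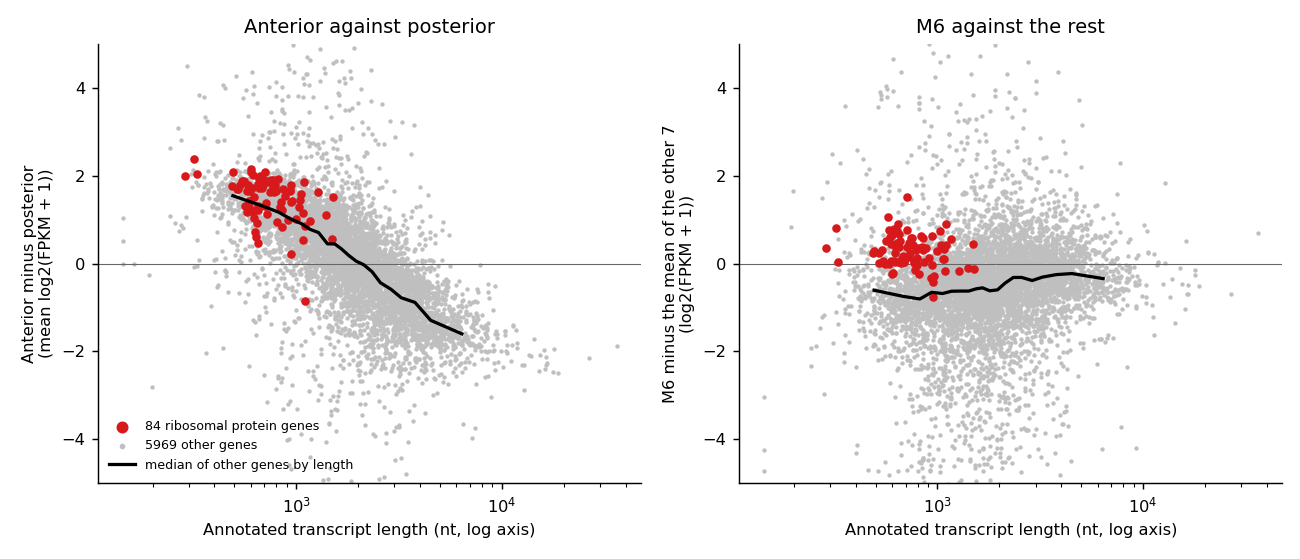
Anterior minus posterior difference (left) and M6 deviation (right), both on log2(FPKM + 1), against annotated transcript length (log axis). Red points are the 84 members, grey points 5969 other genes, and the black line is the median of the other genes in 20 classes of length, and 106 and 95 grey points lie outside the axes. The members sit along the black line or slightly above it on the left, and above it on the right.

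Each member was therefore set beside the other genes with a transcript length within 1.5 times and a mean FPKM within 4 times of its own. At least 10 such genes were found for 82 members, with a median of 179, while RpL39 and RpL41 had fewer and received no value. Over the 82 members the median difference was 1.44 in the genes of like length and level. The members exceeded these genes by a median of 0.18, the 25th and 75th percentiles being −0.19 and 0.36, and 53 of 82 lay above them. Of the genes of like length and level, a median of 69.8% had a difference above 1, against the 24.0% of all genes. The higher anterior level of the members was thus largely shared by genes of like length and level. These genes were longer than the member by a median of 1.11 times and had 0.597 times its level, and the members exceeded them by 0.12 with narrower windows and by 0.48 with the window on length alone. Without M1 the excess was 0.35, without M10-11 0.11 and without M3-4-5 0.11.

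M6 was where the members departed most from genes of like length and level. The M6 deviation, which is the value in M6 less the average of the remaining 7, had a median of 0.25 over the members and −0.50 over all genes. It was above 0 in 68 of 84 members, against 25.7% of all genes. The median of 0.25 was 0.12 without M9, 0.13 without M10-11, 0.13 without M7-8, 0.38 without M1, 0.38 without M3-4-5 and 0.43 without M2. It was 0.71 with equal sums and 0.80 after division by the median ratio, and 83 members were then above 0. In the genes of like length and level the median was −0.93, and the members exceeded them by a median of 1.27, with 25th and 75th percentiles of 0.92 and 1.55. Of the 82 members, 80 lay above their genes of like length and level, 55 of them by more than 1. The exceptions were RpL29 at −0.29 and RpLP0-like at −0.09. RpL29, with an M6 deviation of 0.04, had the fewest genes of like length and level, 20, and their median was 0.34. The value of 1.27 was 1.26 and 1.20 with the other scalings, 1.17 with narrower windows and 0.96 with the window on length alone. The lower depth and RNA quality of the M6 library move with this comparison, and their part in it was not tested.

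**Figure D3:**
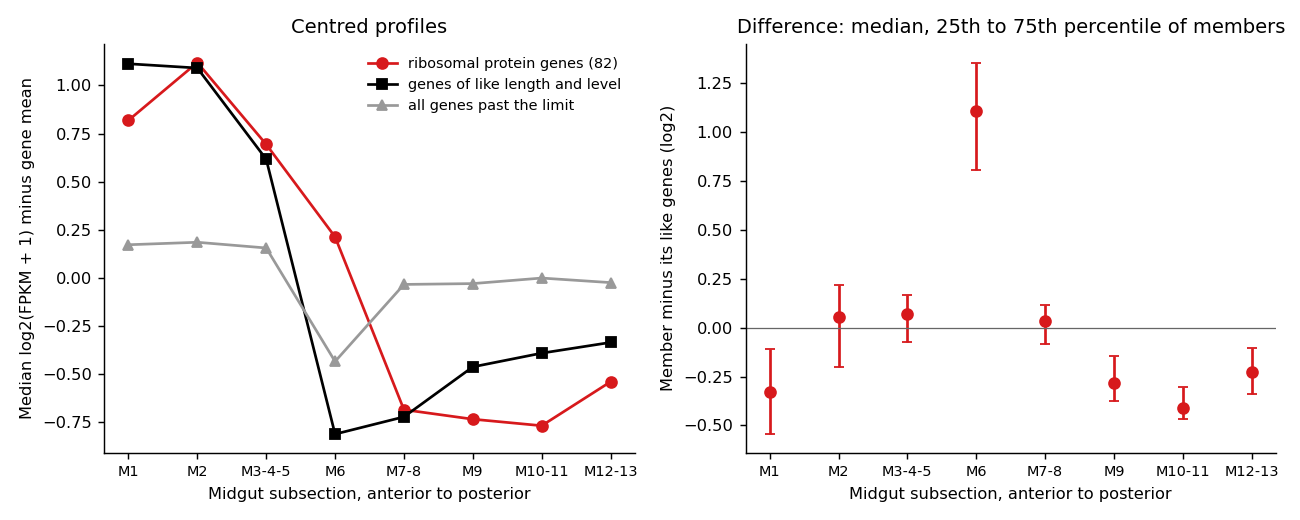
Left, median log2(FPKM + 1) in each subsection after subtraction of each gene's mean, for 82 members (red), their genes of like length and level (black) and all 6084 genes (grey). Right, member minus its genes of like length and level, with the median as a point and the 25th to 75th percentile of the members as a bar. The red and black lines are close in M2, M3-4-5 and M7-8 and furthest apart in M6, where the members lie 1.11 higher.

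Subsection by subsection, the centred values of the members relative to genes of like length and level had a median of −0.33 in M1, 0.05 in M2 and 0.07 in M3-4-5, then 1.11 in M6 and 0.03 in M7-8, then −0.28 in M9, −0.41 in M10-11 and −0.22 in M12-13. In M10-11 only 3 of 82 members lay above these genes, and in M1 only 13. Since each gene is centred on its mean over all 8 subsections, the excess in M6 by itself lowers the values of the other 7. It lowers each of them by the same amount, while their medians ranged between −0.41 in M10-11 and 0.07 in M3-4-5.

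The members held a large part of all transcript signal. Of the summed FPKM they made up 9.94% in M1, 10.9% in M2, and 10.3% in M3-4-5, then 14.7% in M6 and 7.35% in M7-8, then 5.65% in M9, 7.25% in M10-11 and 10.8% in M12-13. M6 had the largest share and M9 the smallest. In M6 the large subunit held 8.9%, the small subunit 5.34% and the stalk 0.476% of the sum. An unnamed entry whose quantification had failed was left out of the sum, and it would have held 48.4% of the M6 sum and 4.24% to 13.8% elsewhere. With it counted, the members held 7.6% in M6, below the 10.1% of M2. RpL41 and RpL39 alone made up 16.8% of the members' sum in M1 and 10.1% in M10-11.

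**Figure D4:**
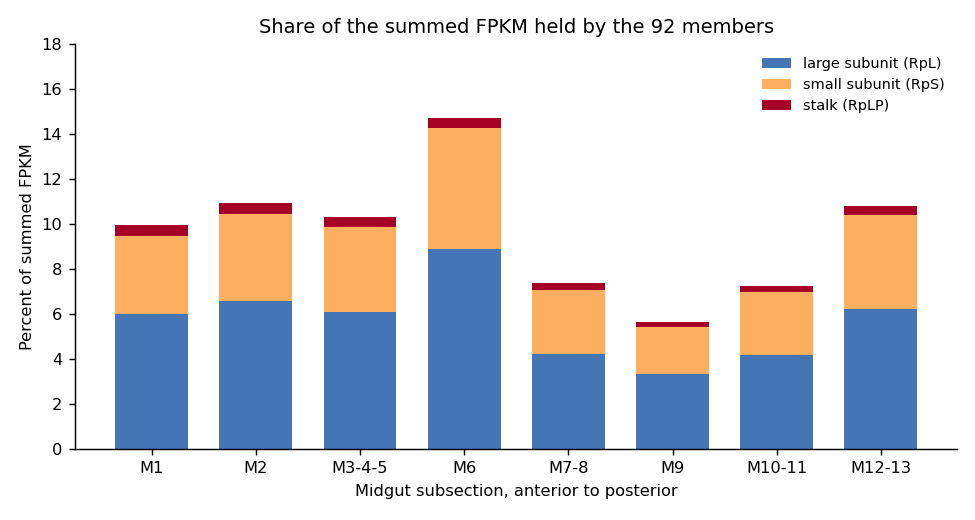
Percent of the summed FPKM of all named entries held by the 92 members in each subsection, as stacked bars for the large subunit, the small subunit and the stalk. The bars reach 14.7% in M6 and 5.65% in M9.

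The subunits are present in equal number in a ribosome, but their FPKM values spanned a wide range. Means over the 8 subsections had a median of 940 FPKM and 25th and 75th percentiles of 687 and 1482 FPKM. The highest member was RpL41, a very small protein of the large subunit, and its mean was 39.8 times that of RpL22. RpL41 (2R, 20779163 to 20815798) had 17041 FPKM in M1, 19159 in M2 and 11962 in M3-4-5, then 10745 in M6 and 3105 in M7-8, then 2866 in M9, 2669 in M10-11 and 3565 in M12-13. RpL39, which lines the tunnel through which the new protein leaves, had 10009.8 FPKM in M1, 12895 in M2 and 7896 in M3-4-5, then 5796 in M6 and 2495 in M7-8, then 2444 in M9, 2276 in M10-11 and 2877 in M12-13. RpL39, RpL41 and RpL29 are the shortest members, with transcripts of 288, 320 and 329 nt. Over the members, Spearman's rho between transcript length and mean FPKM was −0.39, and over other genes it was −0.33.

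RpL29, of the large subunit, had 5112 FPKM in M1, 5805 in M2 and 3573 in M3-4-5, then 2194 in M6 and 1237 in M7-8, then 1013 in M9, 1054 in M10-11 and 1420.5 in M12-13. RpL15, a large subunit protein whose gene lies in heterochromatin (3LHet, 2397791 to 2398981), had 3956 FPKM in M1, 4951 in M2 and 3360.0 in M3-4-5, then 2811 in M6 and 1477 in M7-8, then 1149.6 in M9, 1406 in M10-11 and 1652 in M12-13. RpS29, a small zinc-binding protein of the small subunit, had 4024 FPKM in M1, 4260.0 in M2 and 2842 in M3-4-5, then 2683 in M6 and 1266 in M7-8, then 852 in M9, 902 in M10-11 and 1228 in M12-13. All of these have the common pattern, with the peak in M2 and M6 well above M7-8.

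The stalk proteins followed the others in the anterior and had lower M6 deviations. RpLP0, which anchors the stalk, had 1095 FPKM in M1, 1318 in M2 and 991 in M3-4-5, then 518 in M6 and 339 in M7-8, then 369 in M9, 359 in M10-11 and 368 in M12-13. RpLP1 had 3312 FPKM in M1, 3770.0 in M2 and 2924 in M3-4-5, then 1742 in M6 and 1068 in M7-8, then 1018 in M9, 987 in M10-11 and 993 in M12-13. RpLP2 had 3036 FPKM in M1, 3869 in M2 and 2587 in M3-4-5, then 1143 in M6 and 749.9 in M7-8, then 665 in M9, 632 in M10-11 and 827 in M12-13. The mean level of RpLP1 was 1977 FPKM, that of RpLP2 1689 FPKM and that of RpLP0 669.7 FPKM. As background, each stalk holds more copies of P1 and P2 than of P0. The M6 deviation was −0.18 for RpLP0, 0.05 for RpLP1 and −0.23 for RpLP2, against the median of 0.25. The large subunit had a median of 0.25 and the small subunit 0.30. Relative to genes of like length and level, RpLP0 was at 1.22, close to the median of 1.27, and RpLP1 and RpLP2 were at 0.88 and 0.64.

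RpL40 and RpS27A, which are translated as fusions to ubiquitin, had M6 deviations of 0.41 and 0.45 and anterior minus posterior differences of 1.5 and 1.43. RpL5 and RpL11, which enter the ribosome together with 5S ribosomal RNA, had anterior minus posterior differences of 1.52 and 1.70. RpS6, the target of S6 kinase, had a difference of 1.16, and its values ranged between 424 FPKM in M10-11 and 1132 FPKM in M2. RpS2, known as string of pearls, had one of the lowest M6 deviations, −0.43.

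The profile of most members was nearly the same. Pearson's r between a member's log2(FPKM + 1) values and the median of the other members, over the 8 subsections, had a median of 0.98, and it was above 0.95 for 65 members and below 0.9 for 7. The points share libraries, and r is given as a description. The lowest values were those of RpL22 (−0.68), RpL6 (0.49), RpL28 (0.77) and RpL3 (0.87). Among the other 6000 genes past the limit, the median r with the members was 0.14, and 5.02% had an r above 0.9.

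RpL22 (X, 656593 to 659163) departed most from the rest. RpL22 is a protein of the large subunit that in Drosophila carries an added segment resembling histone H1. It had 139 FPKM in M1, 138 in M2 and 143 in M3-4-5, then 363 in M6 and 244 in M7-8, then 278 in M9, 228 in M10-11 and 255 in M12-13. It was thus lowest in the anterior midgut, where most members were highest, and peaked in M6. Its anterior minus posterior difference was −0.85, the only one below 0, and −1.72 relative to the 614 genes of like length and level. Its M6 deviation was 0.89.

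RpL6 and RpL28 had a shallow slope between the ends and their highest value in M6. RpL6 (3R, 27420514 to 27421926), of the large subunit, had 383 FPKM in M1, 519.8 in M2 and 525 in M3-4-5, then 677 in M6 and 418 in M7-8, then 437 in M9, 381 in M10-11 and 405 in M12-13. RpL28 (3L, 3219156 to 3222960), of the large subunit, had 595 FPKM in M1, 883 in M2 and 699 in M3-4-5, then 957 in M6 and 530.3 in M7-8, then 500.1 in M9, 478 in M10-11 and 576 in M12-13. Their anterior minus posterior differences were 0.21 and 0.47, which are −0.98 and −0.96 relative to genes of like length and level. Reads of overlapping genes cannot be told apart in these unstranded libraries, and the locus given for RpL28 overlaps that of CG12034.

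RpL3 and RpS4 also had a shallow slope. RpL3, the large subunit protein that reaches close to the peptidyl transferase center, had 457 FPKM in M1, 627 in M2 and 643 in M3-4-5, then 625 in M6 and 384 in M7-8, then 389 in M9, 361 in M10-11 and 410.2 in M12-13. RpS4, of the small subunit, had 699 FPKM in M1, 886 in M2 and 783 in M3-4-5, then 812 in M6 and 575 in M7-8, then 571 in M9, 491 in M10-11 and 569.9 in M12-13. In both genes M6 was at the level of the anterior subsections and the posterior values were lower, by 0.56 and 0.53 between the ends.

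RpL38 (2R, 402893 to 403963), a small protein of the large subunit known in mice for a role in the translation of Hox messages, had 2 peaks. It had 3001 FPKM in M1, 2242 in M2 and 1506 in M3-4-5, then 2661 in M6 and 424 in M7-8, then 455 in M9, 488 in M10-11 and 609 in M12-13. M1 and M6 were its high subsections, and M3-4-5 between them was lower. Its M6 deviation of 1.52 was the highest of the members, and relative to genes of like length and level it was 2.43.

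RpS13, RpS24 and RpL27 had their highest value in M6, with the anterior subsections next and the posterior ones lowest. RpS13, of the small subunit, had 775 FPKM in M1, 992 in M2 and 880.0 in M3-4-5, then 1102 in M6 and 554 in M7-8, then 505 in M9, 489.7 in M10-11 and 599 in M12-13, and the quantification of M10-11 and M12-13 was marked as failed for this gene. RpS24, of the small subunit, had 526 FPKM in M1, 632 in M2 and 538 in M3-4-5, then 730.3 in M6 and 318 in M7-8, then 296 in M9, 269.8 in M10-11 and 321 in M12-13. RpL27, of the large subunit, had 942 FPKM in M1, 1285 in M2 and 993 in M3-4-5, then 1384 in M6 and 450.2 in M7-8, then 499 in M9, 400.3 in M10-11 and 527 in M12-13. The M6 deviations were 0.73, 0.89 and 1.06, and the locus given for RpL27 overlaps that of CG5028.

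An anterior minus posterior difference of at most 1 was found in 13 members, among them RpL3, RpL6, RpL7A, RpL10Ab, RpL22, RpL23A, RpL28, RpS3A, RpS4, RpS7, RpS13 and RpS24. Many ribosomal protein genes of flies carry small nucleolar RNA genes in their introns, which guide the modification of ribosomal RNA. In the annotation, 28 members held a total of 74 snoRNA genes on their strand, among them RpS7 with 7, against 0.756% of other coding genes that held any. Of the 13 members with a difference of at most 1, 9 held snoRNA genes. The median anterior minus posterior difference was 1.27 over the 28 members with a snoRNA gene and 1.67 over the 56 without one. Set against genes of like length and level the medians were −0.01 and 0.21, and the members with a snoRNA gene had the longer transcripts, with medians of 849 and 680.2 nt.

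Several ribosomal proteins of flies are encoded by a pair of paralogous genes, and reads can be split wrongly between near-identical copies. RpS14a and RpS14b, neighbors on X that encode the same protein of the small subunit, were both abundant. RpS14a had 1445 FPKM in M1, 1791 in M2 and 1203 in M3-4-5, then 1016 in M6 and 491 in M7-8, then 448 in M9, 442 in M10-11 and 494 in M12-13. RpS14b had 824 FPKM in M1, 1037 in M2 and 722 in M3-4-5, then 723 in M6 and 215 in M7-8, then 274 in M9, 259 in M10-11 and 279 in M12-13. RpS14b made up 37.2% of the pair's summed FPKM, between 30.5% in M7-8 and 41.6% in M6.

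RpL34b was the main copy of RpL34, a protein of the large subunit. RpL34b had 984 FPKM in M1, 1254 in M2 and 912 in M3-4-5, then 516 in M6 and 269 in M7-8, then 287 in M9, 279.7 in M10-11 and 339 in M12-13. RpL34a had 304 FPKM in M1, 275 in M2 and 204 in M3-4-5, then 110.5 in M6 and 74.0 in M7-8, then 78.4 in M9, 66.4 in M10-11 and 87.2 in M12-13. RpL34a made up 19.9% of the pair, between 17.6% in M6 and 23.6% in M1, and it was highest in M1 while RpL34b was highest in M2.

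RpS15Aa and RpS15Ab, of the small subunit, had nearly parallel profiles. RpS15Aa had 1908 FPKM in M1, 2493 in M2 and 1652 in M3-4-5, then 1131 in M6 and 566 in M7-8, then 462 in M9, 524 in M10-11 and 679 in M12-13. RpS15Ab had 163 FPKM in M1, 194 in M2 and 129.5 in M3-4-5, then 106 in M6 and 45.6 in M7-8, then 40.7 in M9, 40.6 in M10-11 and 48.1 in M12-13. RpS15Ab made up 7.53% of the pair, between 6.63% in M12-13 and 8.53% in M6.

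In a further group of pairs, 1 gene held nearly all of the signal. RpS10b, of the small subunit, had 1355 FPKM in M1, 1834 in M2 and 1379 in M3-4-5, then 717 in M6 and 487 in M7-8, then 492 in M9, 472 in M10-11 and 501 in M12-13, and RpS10a was at 0.0869 and 0.264 FPKM in M1 and M2 and listed at 0 in the other 6. RpS19a, of the small subunit, had 1624 FPKM in M1, 2156 in M2 and 1538 in M3-4-5, then 930.1 in M6 and 498 in M7-8, then 424 in M9, 405 in M10-11 and 552 in M12-13, and RpS19b had at most 0.104 FPKM. None of these lesser copies reached 3 FPKM in any subsection.

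RpS28b, of the small subunit, had 2333 FPKM in M1, 3105 in M2 and 2131 in M3-4-5, then 1974 in M6 and 858 in M7-8, then 719 in M9, 771 in M10-11 and 955 in M12-13. RpS28a was listed at 0 in all 8 subsections, and RpS28-like reached 0.231 FPKM in M2 and 0.158 FPKM in M9 and was listed at 0 elsewhere. RpL10Ab, of the large subunit, had 874 FPKM in M1, 1089 in M2 and 966 in M3-4-5, then 1039 in M6 and 526 in M7-8, then 516 in M9, 499 in M10-11 and 618 in M12-13, and RpL10Aa was listed at 0 in all 8. RpL37a on X, which differs from the gene named RpL37A on 2L, had 2756 FPKM in M1, 3600.4 in M2 and 2526 in M3-4-5, then 1218 in M6 and 1018 in M7-8, then 955 in M9, 893 in M10-11 and 912 in M12-13, and its paralog RpL37b was at 0.187 FPKM in M2 and 0.259 FPKM in M6 and at 0 elsewhere. RpL22-like, known from the testis, was at 0.0307 FPKM in M2 and at 0 in the other 7, so nearly all signal of that pair was from RpL22.

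**Figure D5:**
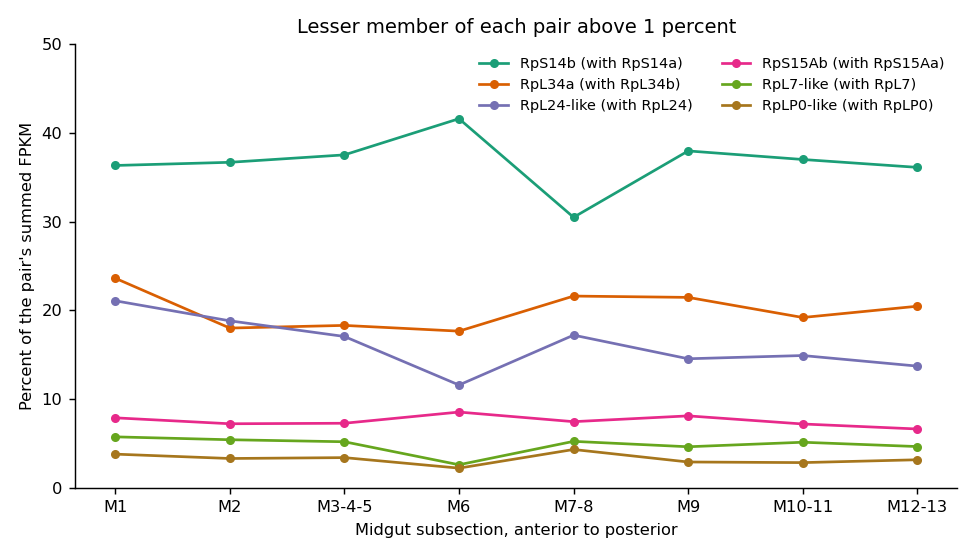
Percent of a pair's summed FPKM held by the lesser gene in the 8 subsections, for the 6 pairs in which it exceeded 1%. RpS14b lies between 30.5% and 41.6%, and RpL24-like, RpL7-like and RpLP0-like are at their lowest share in M6.

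Of the members with the ending -like, RpL24-like, RpL7-like and RpLP0-like were low but measurable. RpL24-like and RpLP0-like resemble yeast proteins that take part in assembly of the large subunit and are not parts of the finished ribosome. RpL24, of the large subunit, had 485 FPKM in M1, 598 in M2 and 538 in M3-4-5, then 498 in M6 and 218 in M7-8, then 222 in M9, 204 in M10-11 and 234 in M12-13. RpL24-like had 129 FPKM in M1, 139 in M2 and 111 in M3-4-5, then 65.2 in M6 and 45.2 in M7-8, then 37.8 in M9, 35.6 in M10-11 and 37.2 in M12-13. RpLP0-like had 43.2 FPKM in M1, 45.0 in M2 and 34.9 in M3-4-5, then 11.7 in M6 and 15.3 in M7-8, then 11.1 in M9, 10.5 in M10-11 and 12 in M12-13.

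The shares of RpL24-like and RpLP0-like in their pairs were lowest in M6, at 11.6% and 2.21%. RpL7, of the large subunit, had 789 FPKM in M1, 953 in M2 and 811 in M3-4-5, then 862 in M6 and 387 in M7-8, then 337 in M9, 319 in M10-11 and 385 in M12-13. RpL7-like had 48.0 FPKM in M1, 54.5 in M2 and 44.4 in M3-4-5, then 23.0 in M6 and 21.3 in M7-8, then 16.3 in M9, 17.2 in M10-11 and 18.8 in M12-13, all with the mark of low data. Its share was 2.6% in M6, against 4.62% to 5.74% elsewhere. Relative to genes of like length and level, the M6 deviation was −0.09 for RpLP0-like, 0.44 for RpL7-like and 0.89 for RpL24-like, all below the median of 1.27 over the members.

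Ribosomal proteins under other names had the anterior level of the members and a lower value in M6. The gene sta, which encodes the small subunit protein RpSA, had 1394 FPKM in M1, 1762 in M2 and 1305 in M3-4-5, then 638 in M6 and 454 in M7-8, then 484 in M9, 465 in M10-11 and 491 in M12-13. Rack1, a scaffold protein on the small subunit, had an anterior minus posterior difference of 1.33, against 1.62 for sta. The M6 deviation was −0.27 for Rack1 and −0.27 for sta, against a median of 0.25 over the members. Relative to genes of like length and level they were at 1.11 and 1.14, against 1.27.

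The mitochondrial ribosomal proteins, encoded in the nucleus and of like length (median 740 nt), shared the higher anterior level. They did not share the peak in M2 or the level in M6. Their median anterior minus posterior difference was 1.42 over 72 genes, with 56 above 1 and 0 below −1, against 1.63 over the cytoplasmic members. Of all genes, 24.0% were above 1 and 19.6% below −1. Of the 72 mitochondrial genes 8 were highest in M2, against 75 of 84 cytoplasmic members and 22.2% of all genes. In M6 the median deviation of the mitochondrial set was −1.05. Of its 72 genes 52 were lowest there, against 0 of 84 cytoplasmic members and 43.2% of all genes. Beside genes of like length and level the mitochondrial set was at −0.37 and the cytoplasmic set at 1.27. With 1 library per subsection this difference between the sets was not tested.

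Other abundant complexes were also high in M6 relative to genes of like length and level. The 32 proteasome genes past the limit were at 0.91 and the 20 V-ATPase genes, the proton pump of the copper cells, at 1.5, against 1.27 for the ribosomal proteins. Their anterior minus posterior differences had medians of 0.41 (6 above 1 and 2 below −1) and 0.22 (7 above 1 and 0 below −1), smaller than that of the ribosomal proteins. The shares over all genes were 24.0% above 1 and 19.6% below −1. Both sets have longer transcripts than the members, with medians of 1298.5 and 2290 nt. Relative to genes of like length and level, the median difference was −0.26 for the proteasome and 0.17 for the V-ATPase. The latter was close to the 0.18 of the ribosomal proteins.

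Translation factors moved in both directions between the ends. Of 6 elongation factor genes past the limit, 2 had a difference above 1 and 1 below −1, with a median of 0.43. The shares of all genes were 24.0% and 19.6%. Ef1alpha48D, which delivers the transfer RNA to the ribosome, had 1182 FPKM in M1, 1419.5 in M2 and 1335 in M3-4-5, then 2525 in M6 and 2539 in M7-8, then 2915 in M9, 2534 in M10-11 and 2382 in M12-13. Its difference of −0.99 is opposite in sign to those of 83 members, and Ef2b, the factor of translocation, was at −1.11. eIF-5A, a short gene, was at 1.06 and eEF1delta at 1.55. Relative to genes of like length and level, Ef1alpha48D was at −1.36, Ef2b at −0.88, eIF-5A at −0.39 and eEF1delta at 0.43.

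Of 18 initiation factor genes, 2 had a difference above 1 and 3 below −1, with a median of 0.13, where 24.0% and 19.6% of all genes did. Trip1 was at 1.04 and eIF6, which keeps the subunits apart, at 1.26, while eIF5 was at −1.23, eIF4G at −1.67 and pAbp, the poly(A)-binding protein, at −2.25. Relative to genes of like length and level, Trip1 was at 0.27, eIF6 at 0.47, eIF5 at −0.94, eIF4G at −0.32 and pAbp at −1.82. Of 13 genes of ribosome biogenesis past the limit, of which RpL24-like and RpLP0-like are members too, 3 were above 1 and 0 below −1, with a median of 0.68, the first a share close to the 24.0% of all genes. Fib, the methyltransferase fibrillarin, was the other, at 1.16. Of 2 genes of RNA polymerase I past the limit, RpI12, a subunit of the enzyme, was at 2.09 and the initiation factor Tif-IA at 0.35. Set against genes of like length and level, RpI12 was at 0.86 and Tif-IA at 0.41. The 13 genes of ribosome biogenesis then had a median of 0.51, against 0.18 for the ribosomal proteins.

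Of 7 genes past the limit that are linked to the control of ribosomal protein genes, 1 was above 1 and 4 below −1. Of all genes, 24.0% and 19.6% were. The 7 genes had a median of −1.16 and a median transcript length of 4186 nt. Thor, an inhibitor of cap-dependent initiation, was at 1.02. Trf2, which binds ribosomal protein promoters in flies, was at −1.80, larp at −2.07, S6k at −2.15 and Tor at −1.16. Set against genes of like length and level, Thor was at −0.28, Trf2 at −0.35, larp at −0.59, S6k at −1.16 and Tor at 0.40. The ribosomal proteins were at 0.18.

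The 10 genes outside the members whose profile was most like their median over the 8 subsections had r between 0.98 and 0.99. They were CG13751, HSPC300, CG17059, Bace, CG1550, CG11077, CG11885, the proteasome gene Prosbeta4, CG18600 and CG6231. CG13751 had 251 FPKM in M1, 278 in M2 and 206 in M3-4-5, then 154 in M6 and 86.9 in M7-8, then 84.2 in M9, 79.0 in M10-11 and 96.0 in M12-13. Bace had an r of 0.98 but another peak, at 4024 FPKM in M3-4-5, and was at 0 in M10-11.

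The deposited intervals were wide. In all 84 members the lower bound was 0 in every subsection, and the upper bound was 2.21 to 9.94 times the value. In 21 members the highest value lay under the upper bound of the lowest, against 35.9% of all genes. The lists and paralogs described here rest on single libraries, and 21 members overlap the locus of another entry.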

How the data were processed

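RNA-seq was done on 8 midgut subsections, 1 library each. The authors mapped single-end reads to release 5 of the annotated genome with TopHat2 2.0.6 and quantified them with Cuffdiff 2.0.2. The FPKM values were deposited by the authors after upper-quartile normalization and correction for fragment bias and for reads that map to several places, with the blind estimate of dispersion, chosen because there were no replicates. The values are not counts, and the reads behind a value are unknown. The authors' lower and upper interval bounds, in FPKM, and the status of each value were deposited beside them. The lower bounds were read only to count those at 0. Positions are Cuffdiff bundles, counted from 1, and can include neighboring genes.

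Here, log2(FPKM + 1) was used as a description, with no test, for entries with a mean above 3 FPKM. Anterior minus posterior is the mean of M1, M2 and M3-4-5 minus that of M9, M10-11 and M12-13. The M6 deviation is M6 minus the mean of the other 7. Transcript lengths, UTRs and snoRNA genes came from a later annotation (BDGP6), whose coordinates were not used. It was joined to 14023 entries, 13635 by identifier, 170 by symbol and 218 by synonym, and to all 92 members, 87 by identifier and 5 by symbol. Genes of like length and level were taken within 1.5 times the length and 4 times the mean FPKM, with at least 10 required. Entries with a status other than OK were kept. The unnamed entry (1 row) was left out. All 8 values are given for the 5 highest and 5 lowest members, paralog pairs, the 10 members whose centred profile departed most from the median, those highest outside the anterior and the stalk. The values of 3 of these members are not reported here. Other members are named with ranges, and RpL32, RpL40, RpS27A, RpL5, RpL11, RpS6 and RpS2 for their roles. Members and lists were chosen with earlier results of these data known. The measures were tested on simulated data. Alternatives were a pseudocount of 0.1, 2 other scalings, other limits and windows, a lowess length trend (share 0.3) removed, and each subsection left out. Scripts ran in Python 3.11.15 (statsmodels 0.14.6, scipy 1.17.1, pandas 2.3.3, numpy 2.4.6).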

Additional observations from a re-analysis of the deposited data

How the results depend on the processing

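When the summed FPKM was made equal in all subsections, 13 members were highest in M2 and 1 had an anterior minus posterior difference above 1, the median difference was 0.43 and the median M6 deviation 0.71. After division by the median ratio the medians were 1.43 and 0.80. With the length trend removed they were 0.40 and 0.86, the second added after seeing the data. Relative to genes of like length and level, the window on length alone gave 0.48 for the anterior minus posterior difference and 0.96 for M6, and narrower windows gave 1.17 for M6. The unnamed entry, counted after seeing the data, took the share of the members in M6 to 7.6%.

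Each subsection was left out in turn. The median M6 deviation then lay between 0.12 without M9 and 0.43 without M2, and relative to genes of like length and level between 1.20 and 1.36. The median anterior minus posterior difference lay between 1.49 and 1.72, and relative to genes of like length and level between 0.11 without M10-11 and 0.35 without M1. The counts of members highest in M2 and above 1, and the medians of r, moved by less than 1.5 times. No direction turned over. Among the lesser paralogs near 0, RpL22-like was above 0 only in M2 and RpS10a only in M1 and M2. RpL37b was above 0 only in M2 and M6, and RpS28-like only in M2 and M9. Their shares rest on those values.

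No paired analysis was possible because each subsection has 1 library. With no replicates and unknown read numbers, the error of each value is unknown. The lower depth and RNA quality of M6 and the length dependence of the anterior libraries touch every result here, and their part in it was not tested.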
